A study of Drosophila melanogaster with 16 samples.

Results

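The list holds 38 genes of the Drosophila cell cycle, taken by symbol from a table of 16680 genes, and all 38 were found, 36 under the listed symbol and 2 under an older one (Cdk1 as cdc2, Cdk2 as cdc2c). By role, 16 act in DNA replication, 10 act in mitosis, and 12 are cyclins, cyclin-dependent kinases (CDKs) and their regulators, called the cycle engine here. The level of each gene was compared between adult midguts with and without an RNAi transgene against Myc, in each sex. Both groups labelled MycRNAi, females (replicates 9 to 12) and males (replicates 13 to 16), had the genotype mex1TS > MycRNAi GD1419. Both control groups, females (replicates 1 to 4) and males (replicates 5 to 8), were w1118; mex1-GAL4 TS/+ and so carried the driver without the hairpin. All flies were virgins, each of the 4 libraries of a group was made from a pool of 30 guts, and the driver mex1-GAL4 acts in enterocytes, so dividing progenitor cells were in the samples without being its target.

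Before S phase, the origin recognition complex (ORC), with Cdc6 and the Cdt1 protein (double parked, dup, in the fly), loads the MCM helicase onto chromatin. Cyclin E with Cdk2 then starts replication, and mitosis follows when cyclins A and B activate Cdk1, which the phosphatase String (stg) releases from inhibition. In the adult midgut, intestinal stem cells are the main cells that divide, whereas enteroblasts becoming enterocytes replicate their DNA without dividing.

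The targeted gene, Myc (listed as dm), was measured first. It had 83.6, 51.7, 56.9 and 43.7 normalised counts (CPM, counts scaled to library size) in females labelled MycRNAi, against 126.5, 84.6, 60.5 and 84.9 CPM in female controls. Males labelled MycRNAi had 30.6, 33.3, 35.7 and 60.2 CPM, against 22.7, 19.8, 25.4 and 34.0 CPM in male controls. The groups overlapped in both sexes. On the log2 scale Myc differed by −0.59 ± 0.26 (SE) in females, with an adjusted p of 0.0892 (edgeR's quasi-likelihood test, Benjamini-Hochberg), and by 0.65 ± 0.26 in males, with an adjusted p of 0.0619, so neither passed the test. The male values thus ran against the label, and the libraries are called "labelled MycRNAi" throughout. The driver's tissue was present in every library: the summed level of 9 enterocyte markers was 16680 to 20260 CPM in females labelled MycRNAi and 39480 to 86260 CPM in female controls, and 19650 to 23290 CPM in males labelled MycRNAi and 40750 to 86710 CPM in male controls. These sums do not measure the amount of enterocyte tissue, because they lean on abundant digestive enzyme genes. Amy-p, for 1, averaged 2631 CPM in females labelled MycRNAi and 11580 CPM in female controls. Of the 9 markers 4 rose and 3 fell in each sex. Total counts were 16630050 to 53586401 per library, of which the 38 genes took 4320 to 28680. One male library labelled MycRNAi, replicate 16, held 23600 reads of 13 testis genes, against 11 to 33 in the other 3 of its group, and results that lean on it are given with and without it. Since whole guts were measured, a change in the number of cells of a type and a change in RNA per cell cannot be told apart. Nothing in the labels says how the pools of a group were separated beyond their numbers, so p-values measure the spread between these pools.

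Most of the list was higher in the libraries labelled MycRNAi, in both sexes. In females 28 of 38 genes rose and 1 fell (adjusted p below 0.05), where 18.5% of all 9314 tested genes rose and 17.6% fell. In males 30 rose and none fell, where 21.7% of all tested genes rose and 17.7% fell; the remaining 8 comprised 7 positive values and 1 negative one. The median log2 fold change was 1.42 in females, a 2.68-fold difference, and 1.53 in males, a 2.89-fold difference, beside medians over all tested genes of 0.00 in females and 0.05 in males. The same 27 genes rose in both sexes. RnrS passed the test in females and not in males, stg, Orc1 and aur passed in males and not in females, and Cdk4, dap, E2f2, Dp, Orc5 and geminin passed in neither. The female calls of stg, Orc1 and aur depended on the setting: DESeq2 called stg (1.16, adjusted p = 0.0387) and aur (1.78, adjusted p = 0.035), the fit within 8 libraries called aur (adjusted p = 0.0383), and edgeR without replicate 16 called Orc1 (adjusted p = 0.0227) and aur (adjusted p = 0.0132). In 27 genes all 4 female libraries labelled MycRNAi lay above all 4 female controls, as did 19.5% of all tested genes, and in 29 genes the male groups were separated in this way, as were 18.8%. More than 2-fold rises were called for 25 genes in females, where 8.04% of tested genes had one, and for 26 in males, where 10.2% had one. Without TMM factors, that is on total counts, the all-gene medians were 0.43 in females and 0.52 in males, and 34 members rose in females, where 37.4% of all tested genes did, and 35 in males, where 47.9% did.

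**Figure D1:**
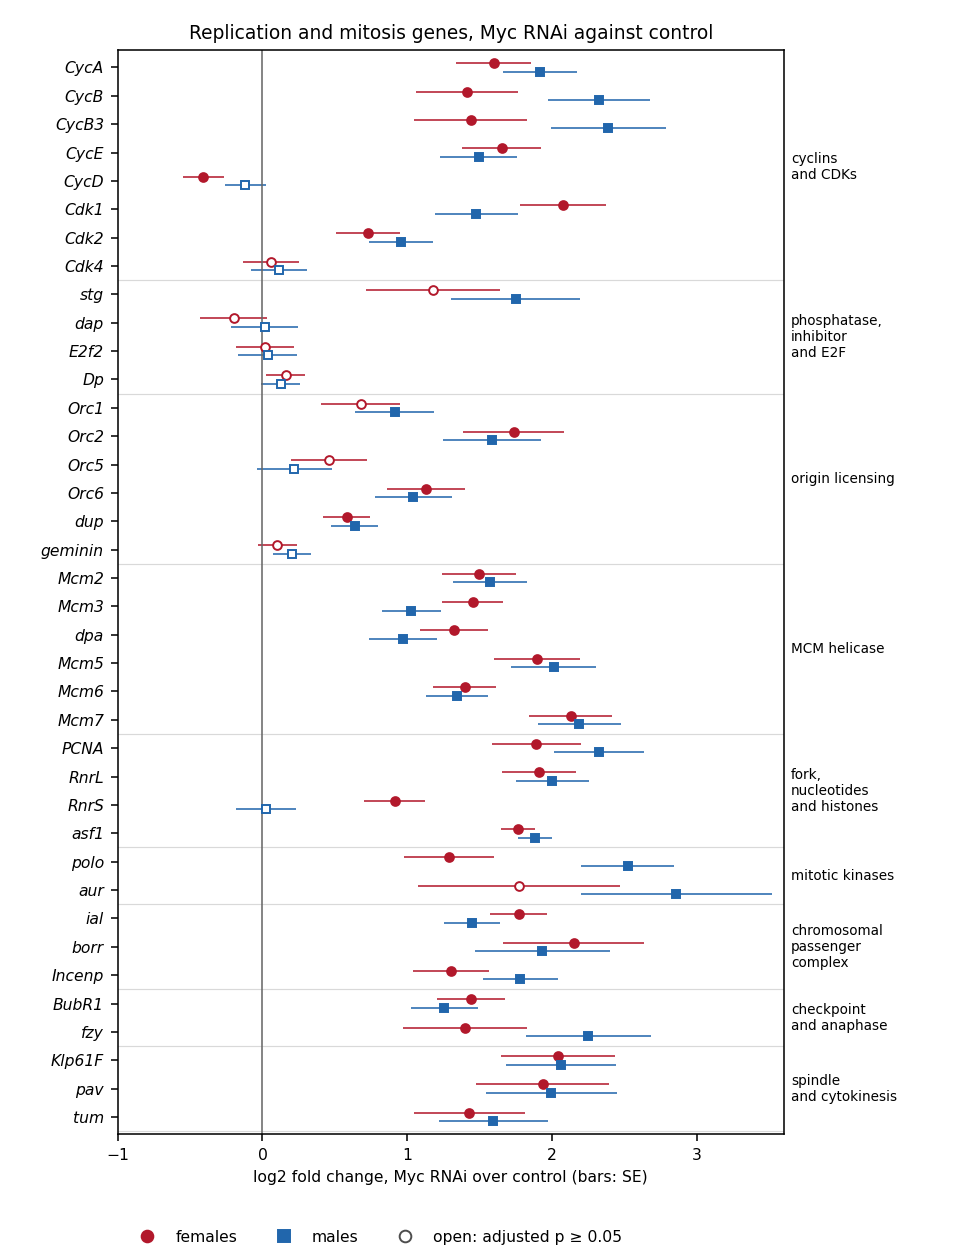
Log2 fold change of the 38 genes, libraries labelled MycRNAi over controls, in females (circles) and males (squares), with bars for the standard error; open symbols did not pass the test. The MCM, fork, chromosomal passenger and spindle genes lie mostly between 1 and 2.5. CycD, Cdk4, dap, E2f2, Dp, Orc5 and geminin lie closer to 0, with CycD called lower in females at −0.41. With libraries scaled to total counts this female CycD value moves to 0.02.

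Of the 6 genes for origin licensing, 3 rose in females and 4 in males. Orc2, a subunit of the complex that marks origins (3R:13964885-13967075 on the dm6 build), had 6.93, 6.88, 5.38 and 6.60 CPM in females labelled MycRNAi, against 1.33, 0.547, 3.07 and 2.76 CPM in female controls. It had 12.6, 10.2, 11.9 and 9.39 CPM in males labelled MycRNAi, against 4.79, 3.34, 3.51 and 3.13 CPM in male controls. No library labelled MycRNAi overlapped the controls of its sex, and Orc2 rose by a log2 fold change of 1.74 ± 0.35 in females (SE, edgeR, adjusted p = 0.000912) and 1.58 ± 0.34 in males (adjusted p = 0.00123). Orc6, another subunit of the complex, rose by 1.13 in females and 1.04 in males. The loader dup had 11.5, 9.04, 8.99 and 12.7 CPM in females labelled MycRNAi, against 5.53, 6.61, 7.60 and 8.43 CPM in female controls. The female groups for dup were separate but close, and it rose by 0.58 in females and 0.64 in males. Orc1, the subunit that binds ATP at the origin, had 4.62, 2.90, 3.48 and 2.38 CPM in females labelled MycRNAi, against 2.18, 1.64, 1.99 and 2.55 CPM in female controls. Its female groups overlapped, with log2 fold change 0.68 (edgeR, adjusted p = 0.0629), whereas in males it rose by 0.91 (adjusted p = 0.0131). Orc5 had log2 fold changes of 0.46 in females and 0.22 in males and passed in neither sex.

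Geminin, which binds Cdt1 and so keeps origins from being licensed again, passed the test in neither sex. It had 16.9, 18.9, 21.1 and 20.4 CPM in females labelled MycRNAi, against 17.3, 15.6, 20.0 and 19.1 CPM in female controls. The male libraries labelled MycRNAi had 17.7, 19.6, 20.2 and 17.2 CPM, against 12.03, 17.7, 18.6 and 16.4 CPM in male controls. The groups overlapped in both sexes, with log2 fold changes of 0.10 ± 0.13 in females (SE, edgeR, adjusted p = 0.601) and 0.20 ± 0.13 in males (adjusted p = 0.243). With libraries scaled to total counts it passed in both sexes, at 0.52 in females (edgeR, adjusted p = 0.0426) and 0.66 in males (adjusted p = 0.00945).

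All 6 subunits of the MCM helicase, which unwinds DNA ahead of the replication fork, rose in both sexes, with median log2 fold changes of 1.47 in females and 1.46 in males. Mcm7 (3L:8891596-8894310) had 13.6, 10.96, 10.7 and 12.4 CPM in females labelled MycRNAi, against 1.44, 2.23, 1.95 and 5.30 CPM in female controls. In males labelled MycRNAi it had 11.9, 12.9, 13.7 and 12.2 CPM, against 3.31, 2.46, 2.80 and 2.57 CPM in male controls. Even the highest control, female replicate 4, lay below every library labelled MycRNAi. Mcm5, whose ATPase site pairs with that of Mcm2 at the gate of the ring, had 6.89, 6.19, 6.84 and 6.34 CPM in females labelled MycRNAi, against 1.33, 1.46, 1.37 and 2.91 CPM in female controls. It rose by a log2 fold change of 1.90 ± 0.30 in females (SE, edgeR, adjusted p = 0.000111) and 2.01 ± 0.29 in males (adjusted p = 4.25e-05). Mcm6 had 10.9, 11.4, 10.8 and 9.21 CPM in females labelled MycRNAi, against 2.50, 4.20, 3.20 and 6.19 CPM in female controls. The 4 subunits besides Mcm5 and Mcm7 rose by 1.32 to 1.49 in females and by 0.97 to 1.57 in males; dpa (the fly Mcm4) was the lowest in both sexes. Female control replicate 4 was the highest of its group for each of the 6 subunits.

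At the fork, the sliding clamp PCNA had 22.5, 14.4, 14.1 and 16.6 CPM in females labelled MycRNAi, against 2.87, 3.19, 3.99 and 8.22 CPM in female controls. Males labelled MycRNAi had 18.6, 22.8, 22.4 and 25.02 CPM, against 4.74, 3.03, 6.81 and 3.27 CPM in male controls. Neither sex showed overlap, and PCNA rose by log2 fold changes of 1.89 ± 0.31 in females (SE, edgeR, adjusted p = 0.000167) and 2.32 ± 0.31 in males (adjusted p = 1.77e-05). The histone chaperone asf1 (3L:19618894-19620398), which delivers histones H3 and H4 behind the fork, had the lowest adjusted p of the list in both sexes. It had 53.0, 50.9, 50.4 and 54.2 CPM in females labelled MycRNAi, against 14.1, 14.4, 14.9 and 18.1 CPM in female controls. The male libraries labelled MycRNAi had 58.7, 50.7, 57.0 and 62.9 CPM, against 15.5, 12.8, 18.2 and 15.6 CPM in male controls. The spread within each group was small beside the difference, and asf1 rose by 1.76 ± 0.12 in females (adjusted p = 6.01e-08) and 1.88 ± 0.12 in males (adjusted p = 8.12e-09).

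Ribonucleotide reductase makes the deoxyribonucleotides for DNA synthesis, and of its 2 listed subunits RnrL rose in both sexes while RnrS passed in females and not in males. RnrL, the large catalytic subunit (2L:10325026-10327943), had 24.7, 20.5, 23.1 and 20.7 CPM in females labelled MycRNAi, against 3.51, 3.51, 6.60 and 10.1 CPM in female controls. It had 28.8, 32.7, 32.7 and 24.2 CPM in males labelled MycRNAi, against 7.13, 7.04, 8.38 and 7.003 CPM in male controls. All libraries labelled MycRNAi held more RnrL than any control of their sex. RnrS, the small subunit that holds the radical used in catalysis, had 88.6, 64.6, 74.3 and 66.1 CPM in females labelled MycRNAi, against 32.5, 52.2, 26.9 and 44.2 CPM in female controls. In males labelled MycRNAi RnrS had 72.4, 86.9, 69.5 and 69.2 CPM, against 46.9, 83.2, 76.9 and 85.8 CPM in male controls. Thus the male groups overlapped for RnrS, whereas the female groups did not, and the female controls were the low group of the 4. RnrL rose by 1.91 in females (edgeR, adjusted p = 2.84e-05), and RnrS rose in females by 0.91 ± 0.21 (SE, edgeR, adjusted p = 0.0025) with a male log2 fold change of 0.02 ± 0.21 (adjusted p = 0.941). The difference between the 2 sexes in this response, 0.89 ± 0.29, did not pass the interaction test (adjusted p = 0.197).

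**Figure D2:**
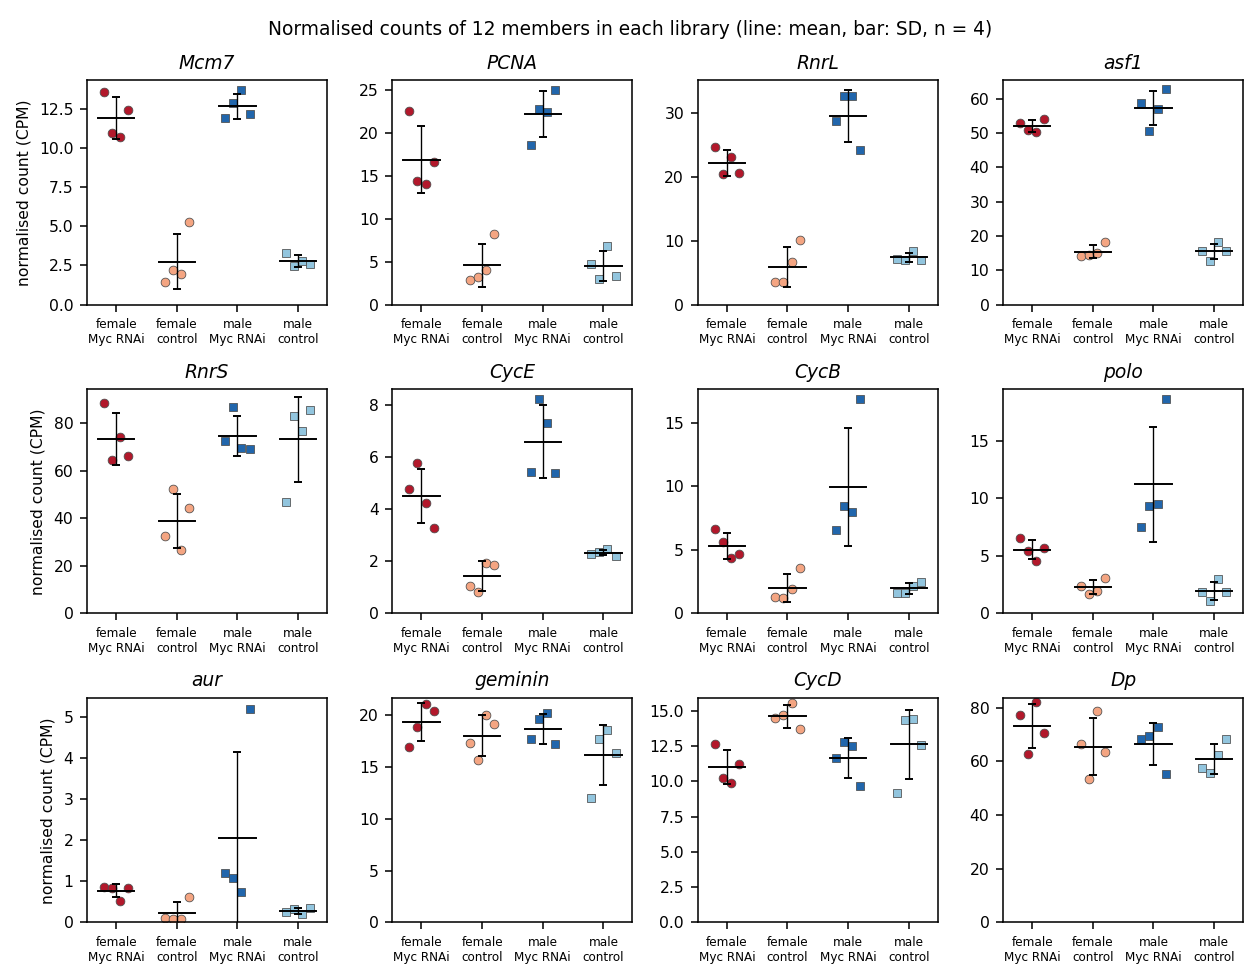
Normalised counts (CPM) of 12 genes in each library of the 4 groups, with the mean (line) and SD (bar, n = 4, drawn down to 0 at most). The libraries labelled MycRNAi lie above the controls of their sex for Mcm7, PCNA, RnrL, asf1, CycE, CycB and polo, the groups overlap in both sexes for geminin and Dp, and male RnrS values overlap while female controls are low.

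Among the 8 cyclins and CDKs, 6 rose in both sexes and 1 fell in females. Cyclin E, which drives entry into S phase (2L:15727581-15748150), had 4.75, 5.75, 4.22 and 3.29 CPM in females labelled MycRNAi, against 1.06, 0.821, 1.95 and 1.87 CPM in female controls. It had 5.42, 8.22, 7.29 and 5.39 CPM in males labelled MycRNAi, against 2.29, 2.36, 2.47 and 2.22 CPM in male controls. CycE libraries of the 2 conditions did not overlap in either sex, and the gene rose by log2 fold changes of 1.65 ± 0.27 in females (SE, edgeR, adjusted p = 0.000188) and 1.49 ± 0.27 in males (adjusted p = 0.000273). Cdk2, the partner of cyclin E, averaged 3.46 CPM in females labelled MycRNAi and 2.08 CPM in female controls, and 3.31 CPM in males labelled MycRNAi and 1.71 CPM in male controls. Cdk2 rose by 0.73 in females (edgeR, adjusted p = 0.0162) and 0.96 in males (adjusted p = 0.00252). The female call for Cdk2 was lost without female control replicate 1 (0.58, adjusted p = 0.0554).

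The cyclins of mitosis rose in both sexes. Cyclin A, needed for entry into mitosis (3L:11826719-11833578), had 10.9, 9.14, 8.55 and 9.17 CPM in females labelled MycRNAi, against 2.45, 2.78, 1.95 and 5.36 CPM in female controls. Males labelled MycRNAi had 10.2, 13, 13.6 and 13.97 CPM, against 3.06, 2.53, 4.24 and 3.58 CPM in male controls. The groups stood clear of each other, and CycA rose by 1.59 ± 0.26 in females (SE, edgeR, adjusted p = 0.000136) and 1.92 ± 0.25 in males (adjusted p = 1.61e-05). Cyclin B had 6.63, 5.60, 4.40 and 4.68 CPM in females labelled MycRNAi, against 1.28, 1.19, 1.95 and 3.59 CPM in female controls. It had 6.60, 8.49, 8.002 and 16.9 CPM in males labelled MycRNAi, against 1.63, 1.62, 2.20 and 2.49 CPM in male controls. Replicate 16 held the highest of these values; CycB rose by 1.41 in females and by 2.32 in males, or by 1.94 in males without replicate 16 (edgeR, adjusted p = 0.000121). CycB3, a B-type cyclin that acts at anaphase, rose by 1.44 in females and 2.39 in males. Cdk1, the kinase these cyclins activate (2L:10384739-10386262), had 5.92, 4.47, 4.57 and 4.03 CPM in females labelled MycRNAi, against 0.744, 1.64, 0.955 and 1.14 CPM in female controls. It had 3.71, 4.38, 4.14 and 7.27 CPM in males labelled MycRNAi, against 1.43, 1.30, 2.20 and 2.05 CPM in male controls. No control reached a library labelled MycRNAi of its sex, and Cdk1 rose by 2.08 ± 0.30 in females (SE, edgeR, adjusted p = 4.83e-05) and 1.48 ± 0.28 in males (adjusted p = 0.000539).

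Of the G1 pair, CycD fell in females and Cdk4 passed in neither sex. Cyclin D, which with Cdk4 promotes growth and passage through G1 in the fly (X:15906822-15909676), had 12.6, 10.2, 9.92 and 11.3 CPM in females labelled MycRNAi, against 14.5, 14.7, 15.6 and 13.7 CPM in female controls. All 4 female libraries labelled MycRNAi lay below the controls, and CycD fell by 0.41 ± 0.14 on the log2 scale (SE, edgeR, adjusted p = 0.0339) and 17.8% of all tested genes had females separated this way. The call was lost with total-count scaling (0.02, adjusted p = 0.928), with no filter (−0.40, adjusted p = 0.0742) and when any 1 of replicates 1, 3, 10, 11 and 12 was left out. Male values overlapped at means of 11.7 CPM in libraries labelled MycRNAi and 12.6 CPM in controls (−0.12, adjusted p = 0.552). Cdk4 averaged 11.4 CPM in females labelled MycRNAi and 10.98 CPM in female controls. It averaged 8.32 CPM in males labelled MycRNAi and 7.67 CPM in male controls, with no call in either sex. With libraries scaled to total counts Cdk4 passed in males (0.57, edgeR, adjusted p = 0.0387) and not in females (0.505, adjusted p = 0.0753).

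The phosphatase gene stg, whose product frees Cdk1 for mitosis, was among the lowest transcripts of the list (3R:29251826-29255800). It had 2.85, 2.06, 2.98 and 3.63 CPM in males labelled MycRNAi, against 0.357, 0.598, 1.10 and 1.30 CPM in male controls. In females labelled MycRNAi it had 1.64, 1.62, 0.626 and 1.04 CPM, against 0.532, 0.182, 0.706 and 0.728 CPM in female controls. The male groups were apart and the female groups overlapped through replicate 11; stg rose by 1.75 ± 0.45 in males (SE, edgeR, adjusted p = 0.00479), and its female value was 1.18 ± 0.47 (adjusted p = 0.0593; 0.0313 without replicate 11). The regulators of S phase entry dap, E2f2 and Dp passed in neither sex: dap, which inhibits cyclin E with Cdk2, had log2 fold changes of −0.20 in females and 0.01 in males, E2f2, a repressor of E2F targets, 0.02 and 0.04, and Dp, the partner that E2F proteins need to bind DNA, 0.16 and 0.13. With libraries scaled to total counts dap was 0.26 in females (edgeR, adjusted p = 0.325) and passed in males at 0.52 (adjusted p = 0.0446), and Dp passed in both sexes, at 0.57 (adjusted p = 0.025) and 0.59 (adjusted p = 0.0165).

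In the group for mitosis, 9 of 10 genes rose in females and all 10 in males. Polo kinase, which acts from mitotic entry to cytokinesis (3L:20309654-20313466), had 6.56, 5.41, 4.54 and 5.69 CPM in females labelled MycRNAi, against 2.39, 1.69, 1.95 and 3.07 CPM in female controls. The male libraries labelled MycRNAi had 7.49, 9.29, 9.53 and 18.6 CPM, against 1.89, 1.13, 2.97 and 1.84 CPM in male controls. The groups did not overlap, and polo rose by 1.29 ± 0.31 in females (SE, edgeR, adjusted p = 0.00387) and 2.52 ± 0.32 in males (adjusted p = 1.01e-05). The male value without replicate 16 was 2.16 (adjusted p = 1.44e-05). Aurora A (aur), which matures the centrosomes, was the lowest transcript in the controls, at 2, 2, 2 and 12 reads in female controls and 5, 9, 6 and 17 reads in male controls. It had 0.870, 0.836, 0.530 and 0.846 CPM in females labelled MycRNAi, against 0.106, 0.0912, 0.0831 and 0.624 CPM in female controls. In males labelled MycRNAi it had 1.21, 1.07, 0.746 and 5.20 CPM, against 0.255, 0.317, 0.200 and 0.352 CPM in male controls. One library stood far above the others in each of 2 groups, female control replicate 4 and male replicate 16. In males aur rose by 2.86 ± 0.66 (edgeR, adjusted p = 0.00238), or 1.81 without replicate 16 (adjusted p = 0.0105), and its female value of 1.77 ± 0.69 (adjusted p = 0.0575) became 2.93 without female control replicate 4 (adjusted p = 0.00447).

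The chromosomal passenger complex corrects faulty spindle attachments and helps the cell to divide, and its 3 listed genes rose in both sexes. Aurora B, its kinase (listed as ial, 2L:10856797-10858094), had 10.8, 8.36, 11.6 and 9.73 CPM in females labelled MycRNAi, against 2.45, 2.74, 3.70 and 2.96 CPM in female controls. It had 11.01, 9.92, 10.6 and 14.6 CPM in males labelled MycRNAi, against 3.62, 4.12, 5.68 and 3.50 CPM in male controls. The conditions were separated, and ial rose by 1.77 ± 0.20 in females (SE, edgeR, adjusted p = 5.27e-06) and 1.45 ± 0.19 in males (adjusted p = 1.48e-05). Borealin (borr), a targeting subunit, had 2.75, 2.65, 2.15 and 2.63 CPM in females labelled MycRNAi, against 0.372, 0.0912, 1.12 and 0.676 CPM in female controls. Its log2 fold change of 2.15 ± 0.49 was the largest of the 38 in females, from few reads, and it was 1.93 in males. The scaffold Incenp had 5.29, 5.26, 4.45 and 4.91 CPM in females labelled MycRNAi, against 1.28, 1.46, 2.62 and 2.70 CPM in female controls. It had 6.63, 7.68, 7.87 and 7.89 CPM in males labelled MycRNAi, against 1.99, 1.37, 3.005 and 2.36 CPM in male controls. Both sexes showed separate groups, with rises of 1.30 in females and 1.78 in males.

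Genes for anaphase, the spindle and cytokinesis rose in both sexes too. BubR1, which holds anaphase back until chromosomes are attached, had 4.55, 4.52, 4.24 and 4.75 CPM in females labelled MycRNAi, against 1.17, 1.32, 1.62 and 2.55 CPM in female controls. The libraries labelled MycRNAi lay close together and above every control, and BubR1 rose by 1.44 in females and 1.26 in males. The gene fzy encodes the fly Cdc20, which activates the anaphase-promoting complex. It had 3.31, 2.06, 2.28 and 2.38 CPM in females labelled MycRNAi, against 0.266, 0.730, 1.08 and 1.72 CPM in female controls. The female groups were close but separate (1.40 ± 0.43, SE, edgeR, adjusted p = 0.017), and the call was lost without female control replicate 2 (adjusted p = 0.0582) or replicate 9 (adjusted p = 0.0519); in males fzy rose by 2.25. Klp61F, the kinesin that pushes spindle poles apart (3L:1241568-1245910), had 3.18, 5.16, 4.35 and 3.81 CPM in females labelled MycRNAi, against 0.585, 0.319, 1.37 and 1.72 CPM in female controls. It had 5.97, 6.39, 7.80 and 5.64 CPM in males labelled MycRNAi, against 1.22, 1.09, 2.27 and 1.57 CPM in male controls. This kinesin rose by 2.04 in females and 2.06 in males. The centralspindlin pair that builds the midzone for cytokinesis also rose, the kinesin pav by 1.93 in females and 1.99 in males and its partner tum by 1.43 and 1.59; the female libraries overlapped for tum.

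Side by side, the median log2 fold change of the 16 replication genes was 1.42 in females and 1.19 in males, and that of the 10 mitosis genes was 1.60 in females and 1.96 in males. When 1 library at a time was left out, the male medians ran from 1.12 to 1.29 for replication and from 1.78 to 2.12 for mitosis. The highest replication median was the one without replicate 16. The cycle engine genes had medians of 0.95 in females and 1.22 in males. The replication genes that did not pass were Orc1, Orc5 and geminin in females and Orc5, geminin and RnrS in males. Of these, Orc1 in females and Orc5 and geminin in both sexes passed when libraries were scaled to total counts. Summed over genes, the replication set reached 251.3 to 299.0 CPM in females labelled MycRNAi and 96.1 to 149.3 CPM in female controls, and 282.3 to 325.6 CPM in males labelled MycRNAi and 133.4 to 173.8 CPM in male controls. The mitosis set reached 39.7 to 45.7 CPM in females labelled MycRNAi and 9.12 to 20.3 CPM in female controls, and 50.4 to 76.9 CPM in males labelled MycRNAi and 12.6 to 22.1 CPM in male controls. For both sets the summed levels did not overlap between conditions in either sex.

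Levels per kilobase of exon differed widely within the list. The highest level was that of RnrS, at 46.1 CPM per kilobase in females labelled MycRNAi and 24.5 in female controls, and 46.8 in males labelled MycRNAi and 46.0 in male controls. It was followed in males and females labelled MycRNAi by asf1, at 34.6 CPM per kilobase in females labelled MycRNAi and 10.2 in female controls. Both Dp and geminin exceeded asf1 in the controls, with 20.5 and 16.97 CPM per kilobase in female controls. At the low end were aur, with 0.488 CPM per kilobase in females labelled MycRNAi and 0.143 in female controls, and stg, with 0.402 and 0.175. The number of genes whose mean was under 1 CPM was 1 in females labelled MycRNAi and 6 in female controls, and 0 in males labelled MycRNAi and 4 in male controls, and at such levels only large differences could be seen.

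The sexes were next compared within each condition. In the controls 2 of 38 genes were lower in females than in males and none higher, where 5.27% of all tested genes were lower and 5.02% higher. These were RnrS, at the values above (−0.91 ± 0.21, SE, edgeR, adjusted p = 0.0117, or 0.0543 within the 8 control libraries alone), and Mcm3, a subunit of the helicase (X:5323855-5326738). Mcm3 had 2.45, 2.42, 2.62 and 4.785 CPM in female controls, against 5.20, 5.42, 5.78 and 5.35 CPM in male controls. All 4 female controls lay below the male ones, as for 7.06% of all tested genes, and the log2 fold change was −0.83 ± 0.21 (edgeR, adjusted p = 0.0194), which did not pass with total-count scaling (adjusted p = 0.109), within the 8 libraries (adjusted p = 0.0738), or without female control replicate 1 (adjusted p = 0.063) or 2 (adjusted p = 0.0511). All 4 female controls also lay below the male ones for CycE and Orc2, and above them for 1 gene, E2f2. The share of all tested genes with female controls above is not given here, so the E2f2 separation cannot be set beside it. None of these passed by edgeR on all 16 libraries. The median over the 38 genes was −0.12, with 25 of them negative, beside a median of −0.01 over all tested genes. The share of negative values over all tested genes is not given here. When 1 library at a time was left out, the median of the 38 genes ran from −0.41 to −0.006. These female controls are the same libraries that the female comparison used.

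Among the libraries labelled MycRNAi, no gene of the list differed between females and males by edgeR, where 5.56% of all tested genes did. The unadjusted p was below 0.05 for 8 of them. DESeq2 called 2, stg (−1.26, adjusted p = 0.0422) and polo (−1.03, adjusted p = 0.0158), and limma voom called 4. DESeq2 and limma voom were run only with replicate 16 included. Of the 38 values 31 were negative with a median of −0.23, where 51.3% of all tested genes were negative with a median of −0.009, and the 10 mitosis genes were all negative with a median of −0.62. Without replicate 16, 30 of 38 were negative with a median of −0.31, and the median of the mitosis genes was −0.44. For polo, borr, Incenp, Klp61F, Orc2 and stg, all 4 females labelled MycRNAi lay below all 4 males labelled MycRNAi, which held for 6.39% of all tested genes. Cdk4 was the 1 gene separated the other way, at 9.63 to 13.2 CPM in females and 7.49 to 9.12 CPM in males. The share of all tested genes separated in that direction is not given here. The response to the transgene itself was not shown to differ between the sexes: no gene passed the interaction test, against 1.07% of all tested genes, and 2 had an unadjusted p below 0.05, RnrS and polo (−1.23 ± 0.44 in females relative to males, edgeR, adjusted p = 0.239). DESeq2 and limma voom called no gene of the list there either.

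Replicate 16, the male library with testis reads, lay mostly above replicates 13 to 15 for mitosis genes and mostly below them for replication genes. Its aur level was 5.15 times the mean of the other 3, CycB 2.19, polo 2.12, fzy 1.98, Cdk1 1.79 and CycB3 1.63 times. Among the replication genes 11 of 16 lay below all 3 of the others and 3 above, with a median ratio of 0.822, and Orc1 was at 0.50 of their mean. The mitosis genes had a median ratio of 1.14, with 6 of 10 above all 3 and 2 below. Summed, the 13 testis genes were at 0.49 to 457.8 CPM in males labelled MycRNAi and at 0.11 to 0.27 CPM in male controls, and the part of that RNA in the ratios was not tested. Without replicate 16 the same 30 genes rose in males, with a replication median of 1.29. The 10 mitosis genes then ran from 1.21 (BubR1) to 2.16 (polo) in males, against 1.26 (BubR1) to 2.86 (aur) with it. The genes that stood highest in replicate 16 moved down: fzy to 1.93, Cdk1 to 1.21 and CycB3 to 2.18.

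**Figure D3:**
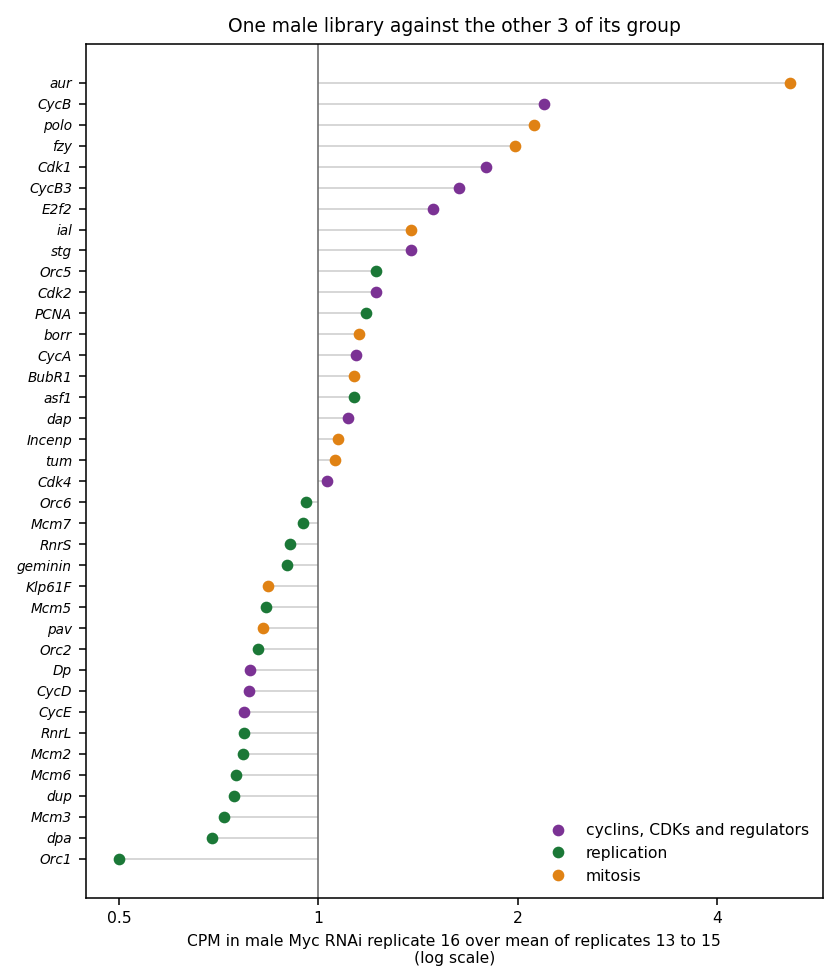
Level of each of the 38 genes in male replicate 16 labelled MycRNAi, divided by the mean of replicates 13 to 15 (log axis), coloured by role. The 6 highest ratios, led by aur at 5.15, belong to mitosis genes, mitotic cyclins and Cdk1, and Orc1 is lowest at 0.50; CycE, CycD, pav and Klp61F lie below 1 and Orc5, PCNA and asf1 above it.

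Most markers of the progenitor cells moved with the list. The 12 genes taken as markers of intestinal stem cells and enteroblasts were esg, Dl, N, Sox21a, Sox100B, klu, zfh2, spdo, E(spl)mbeta-HLH, E(spl)m3-HLH, upd3 and sna. Which cells expressed each of them, upd3 included, was not tested. Of these markers, all 12 rose in females (median log2 fold change 1.39) and 9 in males (median 1.34), where 18.5% of all tested genes rose in females and 21.7% in males, and none was at 0 reads. Examples were Sox21a, a regulator of stem cell division and differentiation, at 1.97 in females and 2.05 in males, Sox100B, a factor needed in progenitors, at 1.93 and 1.62, and the Notch ligand Delta (Dl), which marks stem cells, at 1.37 and 1.31. In males 11 of the 12 values were positive and 1 was negative, the lowest at −0.29. The female count was 6 of 12 without female control replicate 1 and 6 of 12 without replicate 2. The male count was 7 of 12 without male control replicate 6 and 11 of 12 without female control replicate 4. Without male control replicate 5, 7 markers rose in males and 1 fell. Their summed level was 195.9 to 272.7 CPM in females labelled MycRNAi and 66.2 to 164.2 CPM in female controls, and 222.6 to 352.4 CPM in males labelled MycRNAi and 87.5 to 150.8 CPM in male controls. Female control replicate 4, which was the highest of its group for 23 of the 38 genes, was also the control with the highest marker sum. Divided by that sum, the mitosis genes gave 0.156 to 0.203 in females labelled MycRNAi and 0.124 to 0.185 in female controls, and 0.161 to 0.345 in males labelled MycRNAi and 0.111 to 0.181 in male controls. The 0.345 was that of replicate 16, and replicates 13 to 15 gave 0.189, 0.161 and 0.177. The same ratio for the replication genes was 0.928 to 1.37 in females labelled MycRNAi and 0.909 to 1.66 in female controls, and 0.924 to 1.27 in males labelled MycRNAi and 1.15 to 1.52 in male controls. For the cycle engine genes it was 0.511 to 0.778 in females labelled MycRNAi and 0.769 to 1.87 in female controls, and 0.437 to 0.683 in males labelled MycRNAi and 0.788 to 1.14 in male controls. The ratios thus overlapped between conditions for replication and mitosis genes in both sexes and for cycle engine genes in females, and were lower without overlap for cycle engine genes in males labelled MycRNAi. The cycle engine and replication sums lean on abundant genes such as Dp and RnrS, which did not pass in males. Dp averaged 66.5 CPM in males labelled MycRNAi and 60.9 CPM in male controls, where the cycle engine sum was 100.1 to 121.6 CPM. RnrS averaged 74.5 and 73.2 CPM, beside a replication sum of 133.4 to 173.8 CPM in male controls. The ratios thus do not describe each gene, and 7 of 12 cycle engine genes rose in males. The part of cell number in these levels was not tested.

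**Figure D4:**
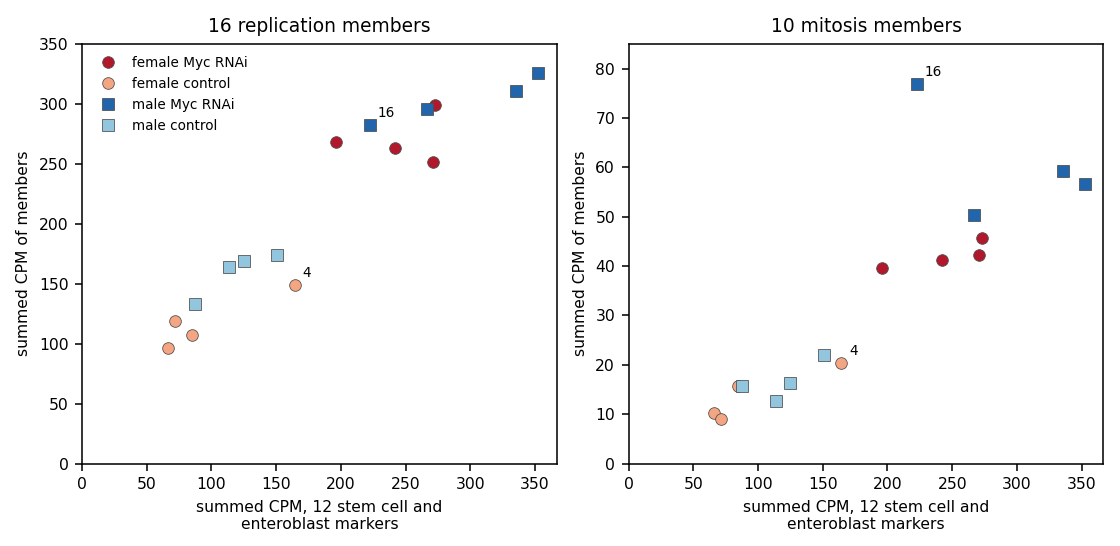
Summed CPM of the 16 replication genes (left) and the 10 mitosis genes (right) against the summed CPM of 12 stem cell and enteroblast markers, 1 point per library, with female control replicate 4 and male replicate 16 numbered. Libraries labelled MycRNAi lie to the upper right of the controls in both panels, and replicate 16 lies above the others in the mitosis panel at 76.9 CPM.

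Markers of other gut and body cells moved less uniformly. The counts below stand beside shares over all tested genes of 18.5% higher and 17.6% lower in females. In males these shares were 21.7% and 17.7%. Of the 9 enterocyte markers 4 rose and 3 fell in each sex: the septate junction genes Ssk (1.20 in females, 1.38 in males) and Tsp2A (1.16 and 1.53) rose, and the digestive enzyme genes Amy-p (−2.14 and −2.41) and betaTry (−2.53 and −2.93) fell. Of 10 enteroendocrine genes, none rose and 1 fell in females, and 1 rose and 1 fell in males. Visceral muscle had 1 higher gene of 9 in each sex, fat body had 1 lower gene of 3 in each sex, and no gene of the 3 hemocyte markers or the 3 Malpighian tubule markers passed. The fat body calls were Lsp2 in females, which did not pass without female control replicate 3 (−2.20, edgeR, adjusted p = 0.19), and Fbp2 in males, which did not pass under 9 of the alternatives tried. Of 12 ovary genes 5 were tested, and none passed against the controls in either sex. Of these 12, the germline genes vas, nos, osk and bcd together had 3 to 15 reads in every library except replicate 16, which had 87. The yolk protein genes Yp1, Yp2 and Yp3 had 878 to 9235 reads in females labelled MycRNAi and 1609 to 4299 in female controls, and 73 to 350 in males labelled MycRNAi and 129 to 324 in male controls.

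Beyond the list, 123 other cell cycle genes in 14 groups were tested. In females 56 rose and 3 fell (median 0.55), where 18.5% of all tested genes rose and 17.6% fell. In males 55 rose and 3 fell (median 0.49), where 21.7% rose and 17.7% fell. Most genes for DNA synthesis rose. All 7 DNA polymerase and primase genes rose in females and 6 of 7 in males, such as Prim2, the large primase subunit, at 2.32 and 1.49, and the catalytic subunits PolE1 at 1.92 and 1.49 and PolA1 at 1.58 and 1.40. Thymidylate synthase (Ts), which makes dTMP, averaged 6.34 CPM in females labelled MycRNAi and 1.31 CPM in female controls, and rose by 2.28 ± 0.29 in females (SE, edgeR, adjusted p = 1.95e-05) and 2.71 ± 0.29 in males (adjusted p = 2.1e-06). Both dUTPase, which keeps uracil out of DNA (1.24 and 1.64), and DNA ligase 1 (1.61 and 1.12) rose as well. In the group of clamp loader, replication protein A and ligase genes 8 of 11 rose in females and 5 of 11 in males, and both other licensing genes, Orc4 (1.03 and 1.09) and Cdc6 (1.15 and 0.81), rose in each sex, though Cdc6 in males did not pass within the 8 male libraries (adjusted p = 0.0513) or without replicate 5 (adjusted p = 0.0644) or 6 (adjusted p = 0.0542). Of the GINS, Cdc45 and helicase loading genes 2 of 8 rose in females and 3 of 8 in males, with Mcm10, which joins the helicase to the polymerase, at 1.90 and 2.26. Of the G1/S regulators 2 of 9 rose and 1 fell in each sex. The histone chaperone Nap1 fell instead, at 130.3 CPM in females labelled MycRNAi and 288.4 CPM in female controls (−1.15 in females, −0.48 in males).

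Other groups for mitosis were mixed. Spindle and cytokinesis genes rose in 9 of 12 cases in females and 11 of 12 in males, among them feo, the fly PRC1 that bundles midzone microtubules (1.82 and 1.61), and sti, the citron kinase of the cleavage ring (1.60 and 1.95). Of the 12 centrosome genes 6 rose in each sex, with tacc at 1.53 and 1.61 and cnn at 1.09 and 1.57. Kinetochore genes rose in 5 of 9 cases in females, led by Ndc80 (1.72) and Spc105R (1.64), and in 3 of 9 in males. Checkpoint and mitotic entry genes rose in 3 of 8 cases in females and 2 of 8 in males, with grp, the fly Chk1, at 1.03 and 0.92. The counts of 4 other groups stand beside a share of higher genes of 18.5% in females and 21.7% in males over all tested genes: the anaphase-promoting complex had 2 of 10 higher in each sex, cohesin and separase 2 of 11 in females and 3 of 11 in males, condensin 1 of 7 in each sex, and the spindle checkpoint 0 of 7 in females and 2 of 7 in males. Some male values leaned on replicate 16: twe, a meiotic relative of stg, was 2.91 with it and 1.58 without it, the securin pim 2.75 and 1.75, and the checkpoint gene mad2 1.73 and 1.01. The 3 genes that fell were Nap1, CycG and the checkpoint kinase lok; with total-count scaling lok (−0.43 in females, −0.17 in males) and CycG (−0.34 in females, −0.17 in males) no longer passed, nor did Nap1 in males (0.01, adjusted p = 0.931), and lok in males did not pass without replicate 16 (−0.58, edgeR, adjusted p = 0.0842) or without any 1 of replicates 6, 7, 8, 13 and 15.

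**Figure D5:**
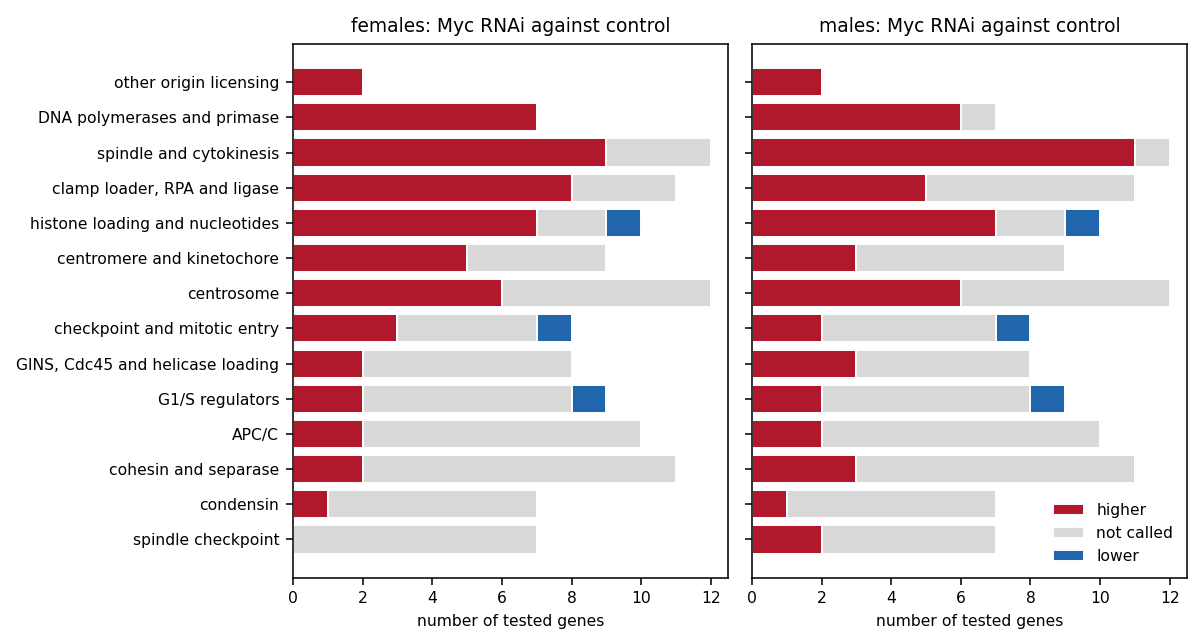
Number of tested genes that rose, fell or did not pass the test in 14 groups of cell cycle genes outside the list, libraries labelled MycRNAi against controls, females left and males right. DNA polymerase and primase genes rose in 7 of 7 cases in females, while 0 of 7 spindle checkpoint genes did.

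Some values may share reads with neighbours, since 15 of the 38 genes overlap another annotated gene. In 4 cases the overlap covers more than 10% of the exon bases, and all overlaps are on the opposite strand. For Mcm7 an antisense RNA gene (asRNA:CR45871, not analysed here) covers 81.7% of the exon bases, and for Klp61F the gene galene (not analysed here) covers 11%. Cdk2 shares 43.9% with CG17267, which had 0 to 3 reads per library, and E2f2 shares 19.9% with Mpp6, which had 39 to 261 reads. The library kit keeps strand, but the strand setting of the counting is not given in the sources used here, so the levels of these 4 genes are uncertain to that extent.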

How the data were processed

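Poly(A) RNA of adult midguts was sequenced from stranded libraries, per the labels' protocols, and aligned with TopHat2 2.0.11 to dm6 and counted with featureCounts, per the submitters' processing notes. The authors deposited raw counts per gene, and these counts were used as deposited. Genes were filtered by edgeR 4.0.16 (filterByExpr by group, 9314 of 16680 genes kept, all 38 listed genes among them), scaled by TMM and fitted with 1 mean per group over all 16 libraries by the quasi-likelihood test (R 4.3.3), with Benjamini-Hochberg adjustment over all genes tested and a threshold of 0.05. CPM values are scaled by the same factors. SE is the log2 fold change divided by the root of F. DESeq2 1.42.0 and limma 3.58.1 were alternatives, and the fit was tested on simulated data. Counts of any 2 libraries of a group differed by more than Poisson noise, with chi-square over its degrees of freedom at 24.2 to 306. The members, gene lists and tests were chosen with earlier results of these data known. All 38 members may be named; of every other list, up to 4 called genes with the lowest p are, with others chosen after their values were seen. Gene positions come from the dm6 annotation. Promoter sequences were not used here.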

Additional observations from a re-analysis of the deposited data

Results flagged for a closer look

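In 13 of the 152 sets of 4 libraries (38 genes in 4 groups), 1 library's gap to its nearest neighbour exceeded Dixon's critical value of 0.829 times the range of the set; chance gives such a gap in about 1 set in 20. Female control replicate 4 was the high one for Mcm2 (5.46 CPM), Mcm3 (4.78 CPM), Mcm5 (2.91 CPM) and aur (0.624 CPM). Male replicate 16 labelled MycRNAi was the high one for CycB3 (4.89 CPM) and aur (5.20 CPM). Male replicate 13 labelled MycRNAi was the low one for Orc5 (2.30 CPM) and Incenp (6.63 CPM). Female replicate 11 labelled MycRNAi was high for Mcm3 (9.87 CPM) and low for aur (0.530 CPM). Among male controls, replicate 5 was low for E2f2 (7.08 CPM) and high for dpa (9.12 CPM), and replicate 7 was high for RnrL (8.38 CPM).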

How the results depend on the processing

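With libraries scaled to total counts, the medians became 1.80 for all members, 1.83 for replication and 1.99 for mitosis in females, and 2.001, 1.66 and 2.43 in males; CycD in females reversed to 0.024, other cell cycle genes called became 90 in females (59 by TMM) and 99 in males (58), and for female against male controls 1 member (2 by TMM) and 2 others (7) were called. The same comparison gave 4 other genes with no filter, 0 members and 2 others within its 8 libraries, and a mitosis median of −0.43 by limma voom (−0.25 by TMM). For females against males labelled MycRNAi, members called were 2 by DESeq2, 4 by limma voom and 2 within 8 libraries (0 by edgeR), and others called were 1 with no filter, 6 by DESeq2 and 4 by limma voom (2 by edgeR). The interaction had 1 other gene by DESeq2 and a mitosis median of 0.064 by limma voom (−0.11 by edgeR).

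Leaving out each library in turn gave 27 to 31 members called in females, 30 in males, 1 to 4 between controls, 0 to 1 between the sexes labelled MycRNAi and 0 for the interaction. Medians ran from 1.25 to 1.67 in females (replication 1.29 to 1.66, mitosis 1.39 to 1.87), 1.44 to 1.61 in males (1.12 to 1.29, 1.78 to 2.12), −0.41 to −0.006 between controls (−0.41 to −0.029, −0.60 to −0.065), −0.31 to −0.18 between the sexes labelled MycRNAi (−0.27 to −0.12, −0.67 to −0.44) and −0.18 to 0.06 for the interaction (−0.14 to 0.22, −0.40 to 0.28). Other genes called ran from 47 to 70 in females, 47 to 61 in males, 3 to 11 between controls, 1 to 4 between the sexes labelled MycRNAi and 0 to 1 for the interaction. The male Myc value passed with total counts (1.09, adjusted p = 0.00606), DESeq2 (0.62, adjusted p = 0.0491) and without replicate 1, 8, 9 or 13 (0.65 to 0.82, adjusted p 0.0328 to 0.0484), and the female one without replicate 3, 9 or 16 (−0.81 to −0.59, adjusted p 0.0288 to 0.0486). The causes were not tested. No paired analysis was possible because replicate numbers run from 1 to 16 with none shared. Genes at a few reads, such as aur, limit what these depths can show.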
